A study of Rattus norvegicus with 6 samples.

Results

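Cardiac autonomic neuron markers were followed through 6 samples of rat myocardium. The set held 9 genes, chosen because neuronal genes had already been seen to be high in single samples of these data. It was thus selected on the levels described here, which are given without a test. All 9 had a row among the 32623 genes measured, and 7 had a mean level high enough to enter the comparison across 13964 genes.

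Total RNA was sequenced from 3 sham and 3 ischemia samples of wild-type (WT) male rats. The protocol in the labels, which is the same for all samples, describes anesthesia, ventilation and a left thoracotomy, without saying which of these steps the sham rats had. In the ischemia group the left anterior descending coronary artery was tied for 30 min, and the sham samples carry the same 30 min label. The labels give each sample a replicate number but do not name the animal, so p-values measure only the spread between these samples, which may be technical.

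The heart is served by both arms of the autonomic nervous system. Cholinergic neurons of the intrinsic cardiac ganglia lie mainly in the fat around the atria and the great vessels, whereas most noradrenergic fibers enter the heart from cell bodies in the stellate and cervical ganglia. Most mRNA of a neuron stays in its cell body. A piece of heart with no ganglion holds only the axons of these neurons, and so little of their mRNA. In bulk tissue, fewer neurons and less RNA per neuron cannot be told apart.

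Several facts of the libraries touch every value below. Total counts ranged from 68529126 to 79591989 per sample, so that 3 counts, taken as the detection floor, equalled 0.0377 to 0.0438 CPM (counts scaled to library size). The sham samples differed in the tissue they held: summed levels of 7 atrial genes were 48666, 253 and 39625 FPKM (reads of a gene per unit of its length and of sequencing depth) in sham replicates 1, 2 and 3, against 1288 to 9671 in the ischemia samples. Sham replicate 1 had 161 counts over 48 rows of the Y chromosome, against 3218 to 8970 in the others, although the rats were described as male. Levels of the neuron genes follow per sample for these reasons.

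The noradrenergic members encode the enzymes of catecholamine synthesis. Th, tyrosine hydroxylase, the rate-limiting enzyme of the pathway, had at most 75 counts in a sample. Its level was 0.378, 0 and 0.580 FPKM in sham replicates 1, 2 and 3, and 0.127, 0.0284 and 0.0300 FPKM in ischemia replicates 1, 2 and 3. These values rest on 51, 0, 75, 19, 4 and 4 counts, and the 0 in sham replicate 2 allows up to 0.0382 CPM. Th was highest in sham replicate 3, and the groups overlapped through sham replicate 2.

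Dbh, dopamine beta-hydroxylase, which converts dopamine to norepinephrine inside vesicles, behaved differently from Th. It stood at 1.37, 0.364 and 6.12 FPKM in sham replicates 1, 2 and 3, and at 2.57, 2.47 and 4.85 FPKM in ischemia replicates 1, 2 and 3. Sham replicate 3 was again the highest, but all 3 ischemia samples lay above the other sham samples. The mean was 2.62 ± 3.07 FPKM (SD, n = 3) in sham and 3.29 ± 1.34 FPKM (SD, n = 3) in ischemia, so the difference was smaller than the spread between replicates.

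Chat and Slc18a3 form the cholinergic gene locus. Chat encodes choline acetyltransferase, which makes acetylcholine, and Slc18a3 the vesicular acetylcholine transporter that loads it into vesicles. Chat had 0.168, 0 and 1.10 FPKM in sham replicates 1, 2 and 3, and 0.0349, 0 and 0 FPKM in the ischemia replicates in the same order. Slc18a3 had 1.39, 0 and 9.75 FPKM in sham and 0.387, 0.0174 and 0.0185 FPKM in ischemia.

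Both genes were high in sham replicate 3, lower in sham replicate 1 and still lower in ischemia replicate 1. Sham replicate 2 had no count for either gene, and ischemia replicates 2 and 3 had 0 counts for Chat and 4 counts each for Slc18a3. In the coordinates of the deposited table, whose genome build is not given in the sources used here, Slc18a3 (chr16:8682669-8685529, minus strand) lies within the span of Chat (chr16:8577840-8686131, minus strand). How reads shared by the pair were counted is not given, so the split between them is uncertain. The groups overlapped for both genes through sham replicate 2.

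The 250 bases before the start sites of these 4 transmitter genes are shown because they code for the enzymes and the transporter that define the transmitter of each neuron type. They come from RefSeq on the GRCr8 assembly, in which 7 of the 9 genes had a promoter entry. The windows lie at chr1:207508219-207508468 (minus strand) for Th, chr3:30886078-30886327 (plus strand) for Dbh, chr16:7723417-7723666 (minus strand) for Chat and chr16:7722815-7723064 (minus strand) for Slc18a3. They read 5′ to 3′ along the gene, and capitals mark matches to the motifs listed after them.
Th: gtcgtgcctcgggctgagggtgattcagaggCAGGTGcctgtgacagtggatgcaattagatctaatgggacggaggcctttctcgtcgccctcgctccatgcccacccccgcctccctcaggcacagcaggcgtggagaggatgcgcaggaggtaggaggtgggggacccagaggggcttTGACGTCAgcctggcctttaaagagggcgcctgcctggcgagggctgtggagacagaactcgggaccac
Dbh: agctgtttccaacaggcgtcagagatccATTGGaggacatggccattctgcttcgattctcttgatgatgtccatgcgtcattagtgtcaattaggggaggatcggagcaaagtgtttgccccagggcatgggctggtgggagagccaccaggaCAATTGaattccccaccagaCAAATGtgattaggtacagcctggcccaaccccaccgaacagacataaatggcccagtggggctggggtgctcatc
Chat: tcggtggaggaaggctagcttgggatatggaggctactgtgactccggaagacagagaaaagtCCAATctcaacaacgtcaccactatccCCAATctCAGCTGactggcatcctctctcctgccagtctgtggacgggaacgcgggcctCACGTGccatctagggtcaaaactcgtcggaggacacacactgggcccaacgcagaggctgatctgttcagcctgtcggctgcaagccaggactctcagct
Slc18a3: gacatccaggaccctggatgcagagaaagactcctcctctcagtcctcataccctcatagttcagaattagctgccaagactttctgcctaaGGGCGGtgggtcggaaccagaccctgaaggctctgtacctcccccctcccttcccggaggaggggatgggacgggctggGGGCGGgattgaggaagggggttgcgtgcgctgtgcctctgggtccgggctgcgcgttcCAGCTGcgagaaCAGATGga

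The motifs were searched on both strands in the windows of 33469 promoters. The cAMP response element TGACGTCA was in the window of Th, 69 bases before the start, and in 1.59% of all promoters. The E-box CANNTG was in Th, Dbh, Chat and Slc18a3, and in 65.5% of all promoters. The CCAAT box CCAAT was in Chat, Dbh, Npy and Phox2a, and in 34% of all promoters. The GC box GGGCGG was in Npy, Phox2a, Prph and Slc18a3, and in 30.5% of all promoters. The TATA box TATAAA was in Prph, 35 bases before the start, and in 12.9% of all promoters. Neither the homeodomain core TAATTA (4.86% of all promoters) nor the GATA forms AGATAA (10.3%) and TGATAA (7.97%) had a match in the 7 windows. No 2 of the motifs searched overlap in the 4 windows printed, and a match describes letters only.

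Phox2a encodes a homeodomain transcription factor that specifies autonomic neurons of both kinds and acts on Dbh. Its level was 0.611, 0.182 and 4.11 FPKM in sham replicates 1, 2 and 3, and 0.421, 0.171 and 0.326 FPKM in ischemia replicates 1, 2 and 3. Only sham replicate 3 stood out, by 6.72 times over the next sample. The other 5 samples lay between 0.171 and 0.611 FPKM, with the groups interleaved.

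Prph, Stmn2 and Snap25 serve the structure and the release machinery of neurons. Prph encodes peripherin, an intermediate filament of peripheral neurons, and had 13.0, 3.77 and 53.6 FPKM in sham replicates 1, 2 and 3 and 2.12, 0.910 and 2.30 FPKM in ischemia replicates 1, 2 and 3. It was the only one of the 9 whose groups did not overlap, with the lowest sham sample at 3.77 FPKM and the highest ischemia sample at 2.30 FPKM. Among all tested genes, 38.6% had groups that did not overlap. Without sham replicate 3 its log2 difference, ischemia minus sham, moved from -3.69 to -2.28.

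Stmn2 encodes a stathmin that regulates microtubules in growing axons. Its level was 7.70, 0.134 and 47.8 FPKM in sham replicates 1, 2 and 3, and 0.924, 0.0818 and 0.0514 FPKM in ischemia replicates 1, 2 and 3. Between its highest and lowest samples, counts went from 7152 to 8. Sham replicate 2 sat among the ischemia samples, below ischemia replicate 1.

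Snap25 encodes a SNARE protein of the presynaptic membrane that takes part in vesicle release. It had 2.30, 0.351 and 13.7 FPKM in sham replicates 1, 2 and 3, and 0.581, 0.357 and 0.392 FPKM in ischemia replicates 1, 2 and 3. Sham replicate 2 was the lowest of the 6 samples, at nearly the level of ischemia replicate 2.

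Npy encodes neuropeptide Y, a co-transmitter of sympathetic neurons that is also made in some cells of the intrinsic ganglia. It was the most abundant of the 9 per length, at 39.3, 9.10 and 70.8 FPKM in sham replicates 1, 2 and 3 and at 11.9, 29.9 and 10.6 FPKM in ischemia replicates 1, 2 and 3. Ischemia replicate 2 stood close to sham replicate 1, and sham replicate 2 was the lowest sample. The mean was 39.7 ± 30.9 FPKM (SD, n = 3) in sham and 17.5 ± 10.8 FPKM (SD, n = 3) in ischemia, a difference within the spread of the sham samples.

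**Figure D1:**
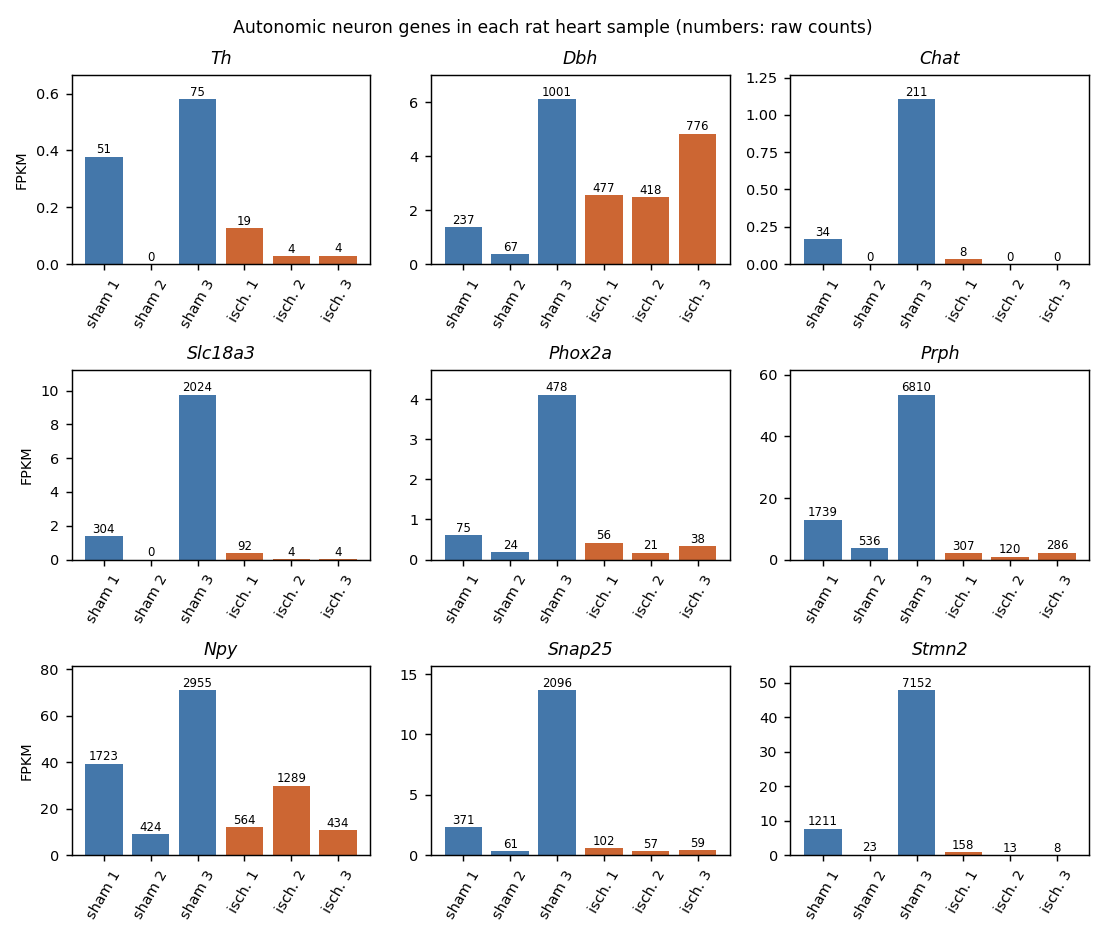
FPKM of the 9 autonomic neuron genes (vertical axes) in each of the 3 sham and 3 ischemia samples (horizontal axes), with the raw count above each sample's value. Sham replicate 3 is the highest sample in all 9 panels, and Dbh is the gene whose ischemia samples come closest to it, at up to 4.85 FPKM against 6.12.

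All 9 genes were thus highest in sham replicate 3, which is the pattern the set was chosen for. It held 84.5% of the FPKM summed over the 6 samples for Chat, 84.3% for Slc18a3 and Stmn2, 77.4% for Snap25, 70.8% for Prph and 70.6% for Phox2a. The share was 50.7% for Th, 41.3% for Npy and 34.5% for Dbh. Of the 7 genes that passed the expression filter, 7 were highest in that sample, 6 had sham replicate 1 as the second sample and 5 exceeded the next sample by at least 3-fold. Over all tested genes these shares were 15.8%, 8.94% and 1.18%. A gene high in 1 sample passes a filter on the mean more easily, and 5 of the 7 would have passed without sham replicate 3.

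The excess of sham replicate 3 over sham replicate 1 was not of 1 size. Ratios are given with exact 95% intervals, which cover counting error only. They were 6.21 (5.84 to 6.60) for Stmn2, 5.94 (5.32 to 6.65) for Snap25, 7.0 (6.20 to 7.92) for Slc18a3, 6.56 (4.55 to 9.72) for Chat and 6.72 (5.26 to 8.69) for Phox2a. All 5 of these intervals share the values from 6.20 to 6.60. Prph, at 4.12 (3.90 to 4.34), and Dbh, at 4.46 (3.87 to 5.16), lay below that range. The ratios of Npy, 1.80 (1.70 to 1.91), and Th, 1.53 (1.06 to 2.23), were the lowest.

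Between sham replicate 1 and ischemia replicate 1, the order was another. Stmn2 was 8.33 times higher in the sham sample (7.05 to 9.90), Prph 6.14 times (5.44 to 6.96) and Slc18a3 3.60 times (2.84 to 4.59). For Phox2a the ratio was 1.45 (1.01 to 2.09). Dbh had a ratio of 0.535 (0.456 to 0.626), so it alone was lower in the sham sample of this pair.

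**Figure D2:**
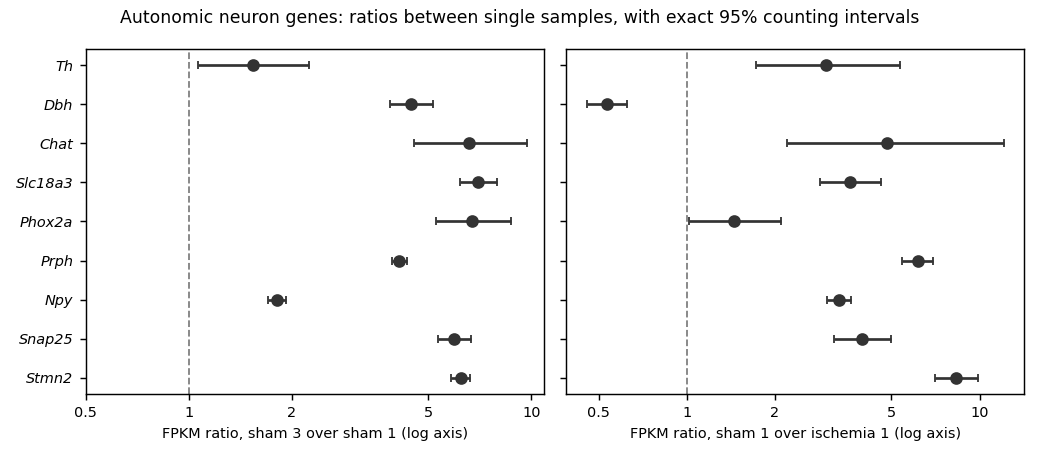
Ratio of FPKM between single samples for each autonomic neuron gene on a log axis, sham replicate 3 over sham replicate 1 on the left and sham replicate 1 over ischemia replicate 1 on the right, with bars for exact 95% counting intervals. Stmn2, Snap25, Slc18a3, Chat and Phox2a lie near 6 to 7 on the left, Th and Npy below 2, and Dbh is the only gene below 1 on the right.

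The level of Dbh was also divided by that of other members in the same sample, a comparison chosen after the values were seen and given without a test. Dbh per Phox2a was 2.24, 2.0 and 1.49 in sham replicates 1, 2 and 3, and 6.09, 14.5 and 14.9 in ischemia replicates 1, 2 and 3. No ischemia sample overlapped a sham sample in this ratio. Over all tested genes, 10.2% had a level per Phox2a that was higher in every ischemia sample than in every sham sample. Of the 6 filtered members other than Phox2a, 1 did, which was Dbh, and nothing is read from that count. Of the ratios of Dbh to the 5 filtered members with a count in every sample, 4 were higher in every ischemia sample. The same count was 1 of 5 for Npy and Phox2a, 1 of 6 for Slc18a3 and 0 of 5 for Prph, Snap25 and Stmn2. These counts have no share over all genes beside them. The members divided by were chosen on these same levels, so nothing is read from the counts. Dbh per Stmn2 was 0.178, 2.72 and 0.128 in the sham samples, against 2.78, 30.2 and 94.3 in the ischemia samples, so sham replicate 2 came close to ischemia replicate 1. Npy per Prph was 3.02, 2.41 and 1.32 in the sham samples, against 5.61, 32.8 and 4.63 in the ischemia samples. This ratio too stands without a share over all genes, and nothing is read from it.

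The group comparison asked whether these genes differed after 30 min of ischemia. By the edgeR quasi-likelihood test with Benjamini-Hochberg adjustment, 0 of the 7 filtered members had an adjusted p under 0.05, where 6.71% of all tested genes did (5.18% higher and 1.53% lower in ischemia). DESeq2 called 3 of 7 against 27.3% of all genes, limma 0 of 7 against 7.96%, and 3 of 7 had an unadjusted p under 0.05 in edgeR against 32.4%. The members were selected on the same samples, so nothing is read from these counts.

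The fitted log2 differences, ischemia minus sham, were -5.65 for Stmn2, -4.64 for Slc18a3, -3.69 for Prph, -3.58 for Snap25, -2.36 for Phox2a, -1.23 for Npy and 0.36 for Dbh. Single samples decided much of their size. Without sham replicate 3, the values were -3.44 for Stmn2, -2.25 for Slc18a3, -2.28 for Prph, -1.61 for Snap25, -0.41 for Phox2a, -0.56 for Npy and 1.87 for Dbh. Without ischemia replicate 1, the differences grew to -7.56 for Slc18a3 and -8.06 for Stmn2, which were near the floor in the other ischemia samples. The sign of Dbh turned when other samples were left out, to -0.15 without sham replicate 2 and to -0.09 without ischemia replicate 3.

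The atrial genes moved with the members in part. When their level was a covariate in the same fit, the differences were -0.92 for Stmn2, -0.71 for Snap25, -1.87 for Prph, -0.12 for Phox2a, -0.09 for Npy, 2.18 for Dbh and 1.52 for Slc18a3, whose sign turned. The part of atrial tissue in the members' levels was not tested.

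**Figure D3:**
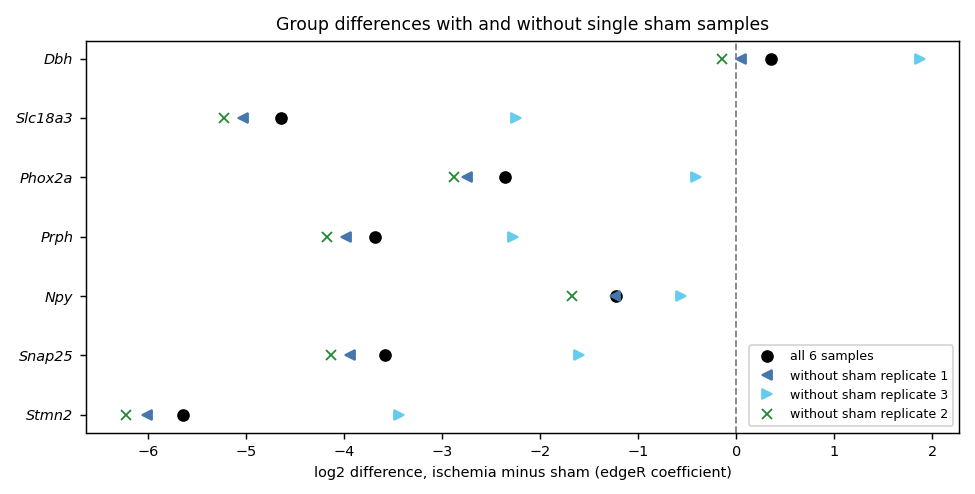
Fitted log2 difference between ischemia and sham for the 7 autonomic neuron genes that passed the filter, with all 6 samples and with sham replicate 1, 2 or 3 left out. Leaving out sham replicate 3 moves every gene to the right, from -5.65 to -3.44 for Stmn2 and from 0.36 to 1.87 for Dbh.

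Genes that the choice had not named were then read from lists of the same neurons, which were also drawn up with earlier results of these data known. Together 60 listed neuronal genes were in the table, and 45 of them were highest in sham replicate 3. Of the 38 that passed the filter, 1 was called higher (5.18% of all tested genes were) and 1 lower by edgeR (1.53% of all), 17 were called by DESeq2, and their median log2 difference was -2.29, against -0.0015 over all tested genes. Only 28 of the 38 would have passed without sham replicate 3, so the others entered through the sample in which they were high, and the medians of these lists are a description only. Among the 38, 30 were highest in sham replicate 3 (15.8% of all tested genes were), 18 of them by at least 3-fold (1.18% of all). The groups did not overlap for 7 of the 38, where 38.6% of all tested genes had such groups, and the 17 calls by DESeq2 stand beside 27.3% of all genes.

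The receptors through which ganglion cells receive preganglionic input followed the cholinergic pair. All 5 nicotinic receptor genes were highest in sham replicate 3, where 15.8% of all tested genes were. The 2 that passed the filter had a median log2 difference of -4.92. Of these 2, 0 were called by edgeR, 1 had an unadjusted p under 0.05 and 1 was called by DESeq2. Over all tested genes these shares were 6.71%, 32.4% and 27.3%, and nothing is read from the counts. Chrna3, the alpha subunit of the ganglionic receptor, had 0.978, 0 and 5.57 FPKM in sham replicates 1, 2 and 3, and 0.124, 0 and 0 FPKM in ischemia replicates 1, 2 and 3. Chrnb4, its beta subunit, had 0.318, 0.0198 and 2.63 FPKM in sham and 0.0665, 0.0604 and 0.0202 FPKM in ischemia. Neither gene would have passed the filter without sham replicate 3.

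Among 7 further cholinergic and nitrergic genes, 3 passed the filter, with a median log2 difference of -2.79, and 3 of the 7 were highest in sham replicate 3. By edgeR 0 of the 3 tested were called. All 3 had an unadjusted p under 0.05, were called by DESeq2 and had groups that did not overlap. Over all tested genes these shares were 6.71%, 32.4%, 27.3% and 38.6%, and nothing is read from the counts. The 3 tested genes were the esterases Bche and Ache, which break down choline esters, and Prima1, which anchors acetylcholinesterase in the membrane. Bche was highest in sham replicate 1, at 7.88, 3.72 and 6.91 FPKM in sham replicates 1, 2 and 3 and 3.35, 0.696 and 1.31 FPKM in ischemia replicates 1, 2 and 3. Ache and Prima1 were highest in sham replicate 3. Prima1 had 1.48, 0.804 and 6.88 FPKM in sham replicates 1, 2 and 3, against 0.671, 0.182 and 0.317 FPKM in ischemia replicates. Slc5a7, the high-affinity choline transporter that is specific to cholinergic neurons, had 0.378, 0 and 1.82 FPKM in sham and 0.0183, 0 and 0 FPKM in ischemia. It was named after its values were seen, since it supplies the substrate of Chat.

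Of the 8 other noradrenergic genes, 3 were highest in sham replicate 3, and the median log2 difference over the 6 tested was 0.20. Gch1, GTP cyclohydrolase, which makes the cofactor that tyrosine hydroxylase needs, rose from 1.31, 1.60 and 1.20 FPKM in sham to 7.06, 20.6 and 8.27 FPKM in ischemia. Its log2 fold change was 2.98 ± 0.47 (SE, edgeR adjusted p 0.0327), higher in 3 of 3 ischemia samples than in any sham sample. Leaving out a sham sample or ischemia replicate 3 ended the call, with a log2 fold change of 2.42 to 3.23 over the fits without 1 sample. Over all alternatives its adjusted p ranged from 8.29e-08 to 0.173 and its log2 fold change from 2.40 to 3.23. By edgeR 7 of 8 neutrophil and monocyte genes rose, against 5.18% of all tested genes, and DESeq2 called 5 of the 8. They summed to 10.1 to 21.7 FPKM in sham and to 488 to 3702 FPKM in ischemia, with the highest sum in ischemia replicate 2, where Gch1 was also highest. Their part in Gch1 was not tested.

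A few more noradrenergic genes were named after their values were seen. Ddc, the decarboxylase that makes dopamine between the steps of Th and Dbh, had 9.02, 5.79 and 6.08 FPKM in sham replicates 1, 2 and 3 and 3.51, 1.34 and 3.14 FPKM in ischemia replicates 1, 2 and 3. Its groups did not overlap, and it did not pass the threshold (log2 difference -1.44 ± 0.42, SE, edgeR adjusted p 0.0805). Slc6a2, the norepinephrine transporter of sympathetic neurons, reached at most 0.148 FPKM in any sample. Gal, which encodes the peptide galanin, had 0, 0 and 1.08 FPKM in sham replicates 1, 2 and 3 and 0.975, 1.42 and 2.71 FPKM in ischemia replicates 1, 2 and 3, where Dbh was likewise above the other sham samples. Its groups overlapped through sham replicate 3 (log2 difference 2.26 ± 1.75, SE, edgeR adjusted p 0.390).

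Of 9 further transcription factors of autonomic neurons in the table, 3 passed the filter, with a median log2 difference of -0.38, 0 calls by edgeR or DESeq2 and 0 at an unadjusted p under 0.05. Hand2, which has a role in sympathetic neurons but also in cardiac muscle, had 29.8, 36.2 and 33.1 FPKM in sham and 49.1, 16.3 and 36.3 FPKM in ischemia. Gata2 and Gata3, zinc finger factors of the sympathetic lineage and of blood and vascular cells, had log2 differences of -0.38 and -0.51. Insm1 was not analysed here.

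Cytoskeletal and RNA-binding genes shared by most neurons numbered 15, of which 14 were highest in sham replicate 3, and 11 were tested with a median log2 difference of -3.17. By edgeR 0 of the 11 were called, with 4 at an unadjusted p under 0.05, and DESeq2 called 5. Over all tested genes these shares were 6.71%, 32.4% and 27.3%, and nothing is read from the counts. Only 9 of the 11 would have passed the filter without sham replicate 3. Tubb3, the neuronal beta-tubulin, had 9.02, 0.622 and 64.3 FPKM in sham replicates 1, 2 and 3 and 10.1, 10.7 and 8.67 FPKM in ischemia, so its ischemia samples were level with sham replicate 1. Thy1, a surface glycoprotein, had 14.0, 4.28 and 88.6 FPKM in sham and 4.99, 2.84 and 3.83 FPKM in ischemia. Uchl1, a ubiquitin hydrolase of neurons, had 14.3, 0.383 and 73.2 FPKM in sham and 3.89, 2.98 and 2.72 FPKM in ischemia. Sham replicate 3 exceeded the next sample by 6.03, 6.32 and 5.13 times for these 3 genes, and by 7.76 times for the neurofilament gene Nefh.

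Synaptic vesicle and secretory granule genes numbered 16, and 13 were tested, with a median log2 difference of -2.91. Only 8 of the 13 would have passed the filter without sham replicate 3. DESeq2 called 6 of the 13, against 27.3% of all tested genes, and edgeR called 1, against 6.71% of all. That 1 was Cplx2, complexin, a regulator of SNARE-driven release. It fell from 2.73, 2.41 and 4.14 FPKM in sham to 1.33, 1.05 and 1.07 FPKM in ischemia (log2 fold change -1.49 ± 0.29, SE, edgeR adjusted p 0.0425), lower in 3 of 3 ischemia samples than in any sham sample. It was highest in sham replicate 3, by 1.52 times over the next sample. Its call was lost when any sham sample, ischemia replicate 2 or ischemia replicate 3 was left out, and over the alternatives the adjusted p ran from 1.17e-05 to 0.212 while the log2 fold change lay between -1.63 and -1.30. Syp, synaptophysin, had the sharpest peak of the list, at 14.1 FPKM in sham replicate 3 against 1.77 in sham replicate 1 and 0.0643 to 0.360 in the other samples.

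Glial cells that wrap neurons and axons were read from 14 genes, of which 11 were tested with a median log2 difference of -1.81. By edgeR 3 of the 11 fell and none rose, where 1.53% of all tested genes were lower and 5.18% higher, and DESeq2 called 6 of the 11 against 27.3% of all. Mbp, myelin basic protein, fell from 12.2, 6.90 and 15.1 FPKM in sham replicates 1, 2 and 3 to 2.82, 2.13 and 0.976 FPKM in ischemia replicates 1, 2 and 3, with a log2 fold change of -2.59 ± 0.43 (SE) at an adjusted p of 0.0349 by edgeR. Scn7a, a sodium channel subunit of Schwann cells, had one of -2.33 ± 0.49 (SE) at an adjusted p of 0.0470 by edgeR.

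For both genes each ischemia sample was below each sham sample, sham replicate 2 included, where the members were low. Sham replicate 3 was above sham replicate 1 by only 1.24 times for Mbp and 1.10 times for Scn7a, against 1.53 to 7.0 times for the 9 members. The glial sum was 49.8, 68.9 and 136.3 FPKM in sham replicates 1, 2 and 3, and 29.5, 17.0 and 13.7 FPKM in ischemia. Neither call held without any 1 sham sample, ischemia replicate 2 or ischemia replicate 3, and over all alternatives the adjusted p-values reached 0.172. With 1 sample left out, the log2 fold changes lay between -2.98 and -2.28 for Mbp and between -2.71 and -2.08 for Scn7a. Foxd3 was not analysed here.

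**Figure D4:**
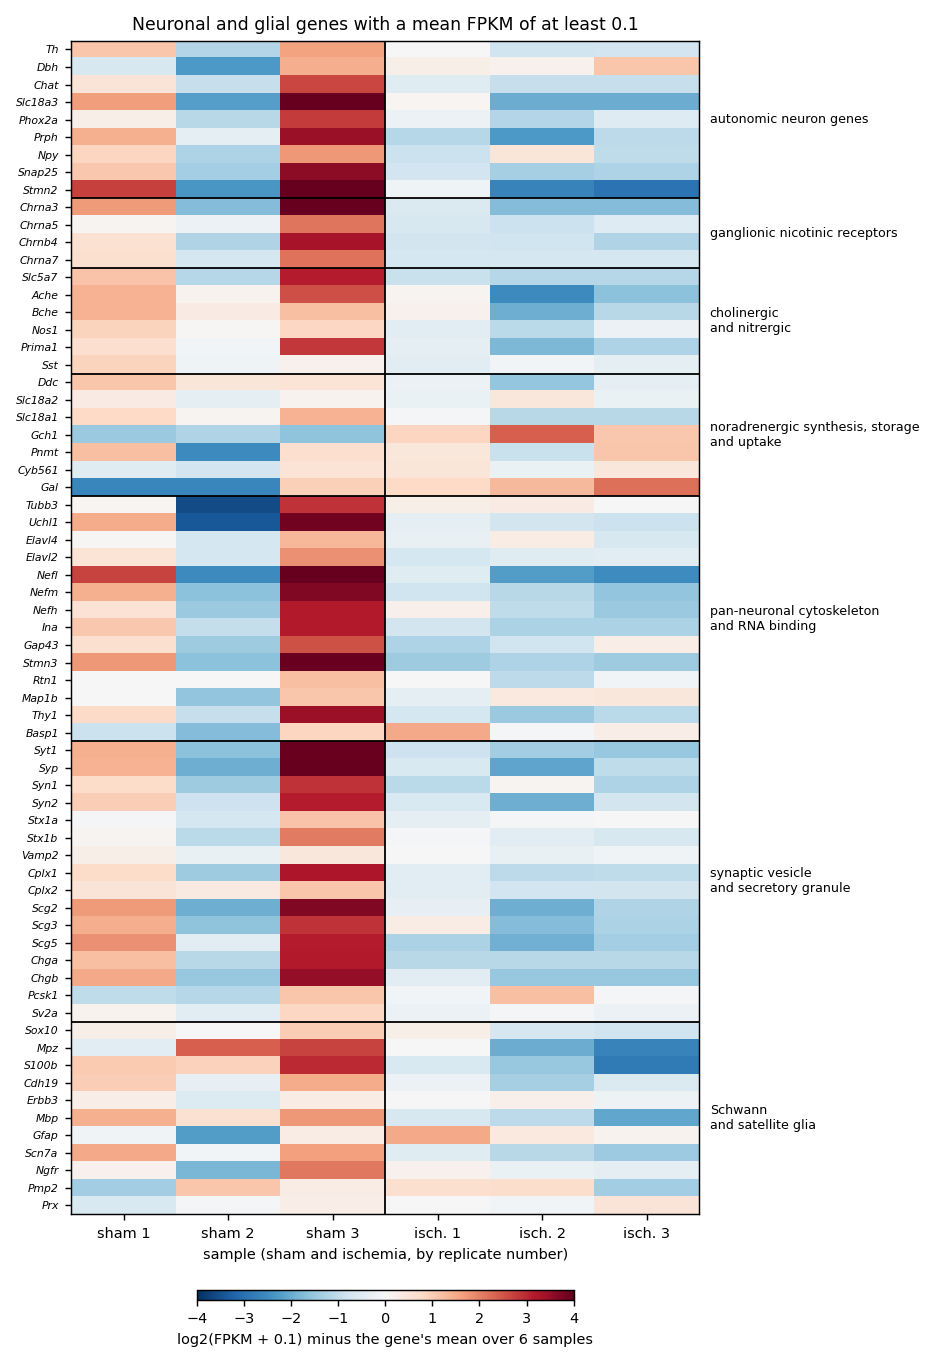
Heat map of the neuronal and glial genes reported here that had a mean of at least 0.1 FPKM (rows, grouped by list) in the 6 samples (columns), colored by log2(FPKM + 0.1) minus the mean of the gene. The column of sham replicate 3 is the reddest for the autonomic neuron genes and nicotinic receptors, while Gch1 and Gal are red in the ischemia columns and Mbp and Scn7a are blue in all 3 of them.

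Genes most like the members in pattern were found by Pearson's r with the mean of the members' log2 CPM over the 6 samples, a description in which all points share the same libraries. The 10 closest were Ndn (0.995), Cartpt (0.988), Nefl (0.988), Syt1 (0.988), Nsg2 (0.984), Prdm6 (0.983), Disp2 (0.982), Caly (0.979), Chrna3 (0.979) and Nefm (0.978). Cartpt encodes a neuropeptide precursor and had 1.56, 0 and 8.37 FPKM in sham replicates 1, 2 and 3 and 0.130, 0 and 0 FPKM in ischemia. Among the members, r with the mean of the other 8 was highest for Chat (0.988), Slc18a3 (0.963) and Snap25 (0.961), and lowest for Npy (0.796) and Dbh (0.411). For Dbh the closest genes were Homez (0.967), Prim2 (0.962) and Selenom (0.952).

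Lists of other tissues that a piece of heart can carry were set beside the members. The atrial sum was higher in sham replicate 1 than in sham replicate 3, although the members' sum was 66.2 FPKM in the former and 207.5 FPKM in the latter, against 13.9 FPKM in sham replicate 2 and 18.6 to 33.9 FPKM in ischemia. Adipocyte genes summed to 20.5, 52.9 and 297.7 FPKM in sham replicates 1, 2 and 3, and to 19.0, 0.372 and 0.207 FPKM in ischemia, so sham replicate 2 came second. Smooth muscle genes summed to 138.0, 123.0 and 575.1 FPKM in sham and to 145.8, 45.4 and 70.2 FPKM in ischemia.

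All 5 adipocyte genes were highest in sham replicate 3, as were 3 of 5 smooth muscle and 2 of 7 atrial genes. The adipocyte and smooth muscle sums were, like the members' sum, highest in sham replicate 3, whereas the atrial sum was highest in sham replicate 1. The part of these tissues in the members' levels was not tested. By edgeR 0 of 7 atrial, 0 of 5 ventricular, 0 of 5 sinoatrial, 0 of 5 epicardial and 0 of 5 adipocyte genes tested were called, with 2, 1, 3, 2 and 2 at an unadjusted p under 0.05 and 1, 1, 3, 2 and 3 called by DESeq2. Over all tested genes these shares were 32.4% and 27.3%, and nothing is read from the counts. Their median log2 differences were -3.66, -0.38, -1.38, -3.39 and -3.79. Smtn was the 1 of 5 smooth muscle genes that fell by edgeR, and DESeq2 also called 1.

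**Figure D5:**
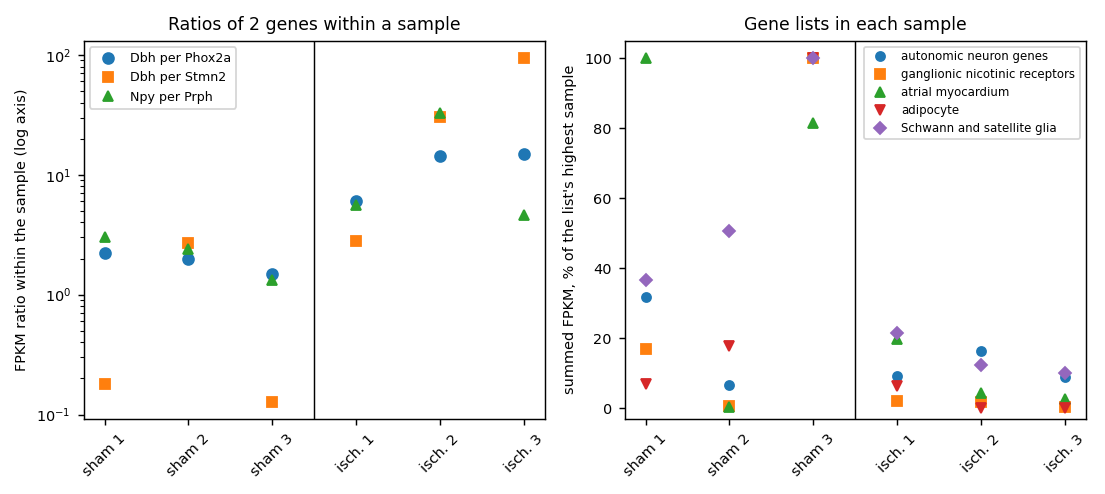
On the left, FPKM ratios of Dbh to Phox2a, Dbh to Stmn2 and Npy to Prph within each sample on a log axis, with Dbh per Phox2a at 1.49 to 2.24 in sham and 6.09 to 14.9 in ischemia. On the right, summed FPKM of 5 gene lists as a percentage of each list's highest sample, where 4 lists peak in sham replicate 3 and the atrial list peaks in sham replicate 1.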

How the data were processed

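Total RNA of 3 sham and 3 ischemia samples had been converted to libraries with a kit that keeps the strand. The submitters' processing notes name STAR and HTSeq. Genome build, annotation, tool versions and the strand setting of counting are not given in the sources used here. The raw counts deposited by the authors are whole numbers per gene, not normalized. The FPKM values, counts per gene length and library size, were made by the authors and give a small constant for a gene that had no read, which was read as 0. No column lacked a sample.

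Groups came from the sample labels. Counts were fitted with the quasi-likelihood test of edgeR 4.0.16 in R 4.3.3 (TMM scaling, a mean of at least 0.5 FPKM, Benjamini-Hochberg adjustment, threshold 0.05), tested beforehand on simulated data. DESeq2 1.42.0 and limma 3.58.1 on log2(FPKM + 0.1), other scalings and filters, an atrial covariate, the replicate number as a block and each sample left out were alternatives. Two-sided p-values are given for genes outside the set. Ratios of single samples carry exact binomial intervals from scipy 1.17.1 in Python 3.11.15.

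The members and all lists were chosen with earlier results of these data known. Named genes were the members, list genes past the threshold or otherwise the 2 to 4 with the highest mean level, the list gene of sharpest peak, and the 10 genes closest in pattern. Others were named after their values were seen, as stated. A few genes of the lists are not reported here by name. Lists covered noradrenergic, cholinergic and nitrergic, transcription factor, nicotinic receptor, pan-neuronal, synaptic, sensory, glial and neurotrophic genes, and atrial, ventricular, sinoatrial, epicardial, lung, adipocyte, smooth muscle, neutrophil and adrenal cortex markers. Promoters were read from a RefSeq table.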

Additional observations from a re-analysis of the deposited data

How the results depend on the processing

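With the main settings edgeR called 723 genes higher and 214 lower in ischemia, 2 neuronal list genes and 3 glial ones. Scaling by total counts gave 83 lower, 1 neuronal and 1 glial, DESeq2 2071 higher, 1742 lower, 17 neuronal and 6 glial, no filter 93 lower and 1 neuronal, and limma or a filter of 5 FPKM 1 neuronal each. The atrial covariate gave 0 higher, 0 lower, 0 neuronal and 0 glial, with 2388 genes at an unadjusted p under 0.05. With each sample left out in turn, higher genes ranged from 0 to 1490, lower genes from 0 to 1115, neuronal list genes from 0 to 4 and glial ones from 0 to 6. The fits without any 1 sham sample or without ischemia replicate 3 made no call, with 3020 to 3809 genes at an unadjusted p under 0.05, and the highest counts came without ischemia replicate 1. The cause was not tested.

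With the replicate number as a block (replicate block), edgeR called 0 higher, 0 lower, 0 neuronal and 0 glial genes, with 3349 at an unadjusted p under 0.05. Same-numbered samples deviated from their group means with an average correlation of -0.11, and other pairs across the groups with 0.0528. With 3 samples a group, these correlations cannot exclude pairing or a shared batch. The labels give no link beyond the number, so the samples were not treated as pairs.

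Of 107 recomputed log2 differences of the members, 18 moved by more than the replicate spread, and those of Dbh and Slc18a3 changed sign under the settings given in the report. Of 80 recomputed values of the 6 named list genes past the threshold, 50 lost the call and none changed direction. Total-count scaling ended the calls of Cplx2, Scn7a and Gfra3, and the block and the covariate ended all 6. With 3 samples a group, Th and Chat, at up to 75 and 211 counts, were below the filter. Fitted without it, their log2 differences were -2.24 and -4.93. Differences of mean log2 FPKM were smaller and depended on the constant added. They were -1.15 and -2.93 with 0.01, -1.03 and -1.53 with 0.1, and -0.29 and -0.42 with 1.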

Other observations

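Sensory neuron genes were low in all 6 samples. Of 8 such genes, among them Calca and Tac1, which encode the peptides of pain-sensing fibers, none passed the filter. The highest value of any of them was 0.269 FPKM, for the heat-gated channel Trpv1 in ischemia replicate 2. Their sum was 0.292, 0.131 and 0.727 FPKM in sham replicates 1, 2 and 3, and 0.314, 0.447 and 0.0692 FPKM in ischemia replicates 1, 2 and 3.

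Neurotrophic ligands and receptors, through which target tissue and neurons signal to each other, numbered 13, of which 9 were tested with a median log2 difference of -1.04. Gfra3, a receptor of the GDNF family, fell from 6.37, 4.57 and 8.56 FPKM in sham to 2.76, 1.17 and 1.30 FPKM in ischemia (log2 fold change -1.95 ± 0.42, SE, edgeR adjusted p 0.0478). Its call was lost without any 1 sham sample, ischemia replicate 2 or ischemia replicate 3, and its adjusted p ranged from 0.000151 to 0.196 over the alternatives. With 1 sample left out, its log2 fold change lay between -2.47 and -1.70. Ret, the signaling partner of that family, had 0.802, 0.948 and 4.82 FPKM in sham and 0.372, 0.360 and 0.172 FPKM in ischemia (edgeR adjusted p 0.0665). Sham replicate 3 exceeded the next sample by 5.08 times for Ret and by 1.34 times for Gfra3. Gfra1 was not analysed here.

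Lung genes summed to 412.9 FPKM in ischemia replicate 1 and to 0.0944 to 15.3 FPKM elsewhere. The 3 tested had a median log2 difference of 7.59, with 0 called by edgeR or DESeq2 and 1 at an unadjusted p under 0.05. The 2 adrenal cortex genes tested had a median of -0.33, with 0 called by either tool and 0 at an unadjusted p under 0.05, and Cyp11b1 and Cyp11b2 were not analysed here. Neutrophil and monocyte genes had a median of 6.07.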
